A study of Mus musculus with 19 samples.

Results

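Esr1, Pgr, Nr3c1 and Nr3c2 encode the estrogen receptor alpha, the progesterone receptor, the glucocorticoid receptor and the mineralocorticoid receptor. They were followed here, with the 5-alpha-reductases Srd5a1 and Srd5a2, across 4 tissues of the mouse embryo at the stage when prostate buds form. Members were taken as every probe set that the platform annotation pairs with a single gene symbol from these 6 genes. The rule found 13 probe sets of 4 genes among 45037 probe sets on the array (3 for Esr1, 3 for Pgr, 6 for Nr3c1 and 1 for Nr3c2). Of these, 12 had an intensity over 20 in at least 1 sample and were tested, among 41549 tested probe sets in all. The annotation used here paired no probe set with Srd5a1 or Srd5a2, and the 5-alpha-reductases were therefore not analysed here.

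The samples were 6 of urogenital sinus epithelium (UGE), 5 of urogenital sinus mesenchyme (UGM), 4 of epidermis and 4 of dermis, all from untreated C57BL/6 embryos at embryonic day 16. Each sample was RNA from tissue pooled over many embryos, and skin came from the same embryos as the urogenital sinus, and an embryo can therefore stand in more than 1 group. UGE and UGM were parted with trypsin, whereas back skin was kept overnight in dispase before epidermis and dermis were pulled apart, so site and separation method cannot be told apart in any comparison between urogenital sinus and skin. The labels do not give the sex of the embryos, and circulating hormone was not measured.

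Steroid receptors of this family are transcription factors that sit with chaperones until a hormone binds, then move to DNA and recruit coactivators or corepressors. The early prostate grows out of the urogenital sinus under androgens acting through the mesenchyme, with 5-alpha-reductases converting testosterone into the more potent dihydrotestosterone. Estrogens, progestins and corticosteroids act through the sister receptors described here, and enzymes in the same cells can make, activate or inactivate their ligands.

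Levels are given as log2 intensity of the deposited values, and a difference as the log2 difference between group means with its standard error (SE) from limma. A probe set was called changed where its p-value, adjusted by Benjamini-Hochberg over all tested probe sets, was under 0.01 and the difference exceeded 2-fold. Each gene was read from its brightest tested probe set. The lower quartile of all probe sets lay between 4.70 and 4.92 log2 on the 19 arrays and the median between 6.25 and 6.35, and these mark how dim a probe set was. No detection call came with the values, so a dim probe set cannot be told from background.

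The tissue labels were checked against markers. All 12 epithelial markers were called higher in UGE than in UGM and all 12 mesenchymal markers lower. In skin, 8 of 12 epithelial markers were called higher and 12 of 12 mesenchymal markers lower in epidermis than in dermis. Each group still carried signal of the other compartment. Summed over the 12 mesenchymal markers, UGE replicates 2 and 3 had intensities of 20494 and 20310. The other 4 UGE samples had 1557 to 5555 and the UGM samples 86847 to 92433. On the same sum the epidermis samples had 18701 to 42824, and the dermis samples 100732 to 128066. Summed over the 12 epithelial markers, the dermis samples had 28282 to 55495, highest in replicate 1, against 1931 to 5530 in UGM, highest in replicate 2. No marker was listed at 0 in any sample. UGM also held signal of 6 neuronal markers (18861 to 24944 summed, against 589 to 893 in dermis) and of 6 smooth muscle markers (17578 to 20167, against 4909 to 6869 in dermis). UGE replicates 2 and 3 stood out as well on 5 markers of the Mullerian and Wolffian ducts, with median log2 intensities of 9.49 and 9.73. UGE replicates 1, 4, 5 and 6 had medians of 7.36, 7.15, 6.95 and 7.79 on these markers, and UGM had 5.98 to 7.02. In bulk tissue, fewer cells of a type and less RNA per cell cannot be told apart, and this holds for every value below.

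The 4 receptors had 4 different orders of level over the tissues. Esr1 was high at both urogenital sinus sites and low in skin, Pgr was highest in epidermis and lowest in dermis, Nr3c1 was lowest in UGM, and Nr3c2 was dim throughout. Between UGE and UGM, 1 of the 4 genes was called (Nr3c1, higher in UGE), where 16.8% of all 17360 genes were called. Between epidermis and dermis, 2 of 4 were called (Pgr higher and Esr1 lower in epidermis), against 16.9% of all genes. UGE against epidermis gave 2 of 4 (Esr1 higher and Pgr lower in UGE, 14.4% of all genes), and UGM against dermis gave 3 of 4 (Esr1 and Pgr higher and Nr3c1 lower in UGM, 13.8% of all genes). These comparisons share samples, and 4 genes are too few to set their share against that of all genes.

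**Figure D1:**
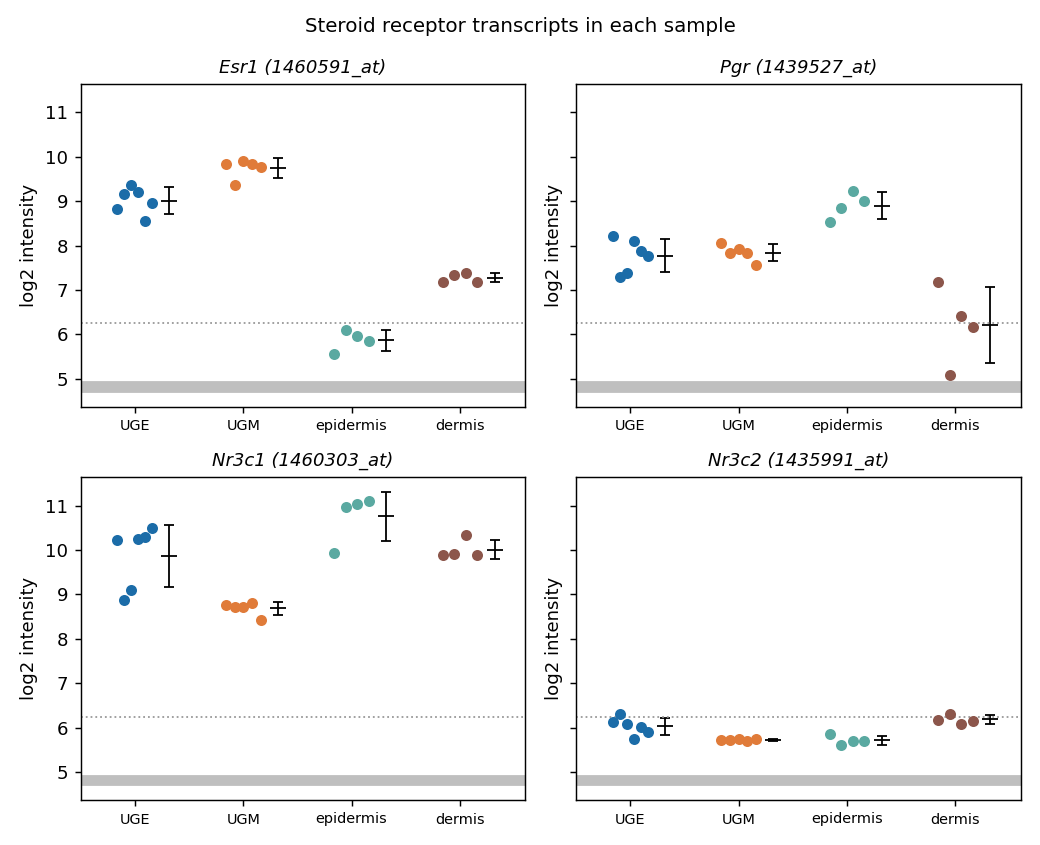
Log2 intensity of the brightest probe set of each receptor gene in every sample, with the group mean and SD beside the points (UGE n = 6, UGM n = 5, epidermis n = 4, dermis n = 4). The grey band spans the lower quartiles of the 19 arrays (4.70 to 4.92) and the dotted line marks the lowest array median (6.25). Esr1 lies above 8.5 in every UGE and UGM sample and below 7.4 in every skin sample, and UGE replicates 2 and 3 lie apart for Nr3c1.

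Esr1, read from probe set 1460591_at, had the largest differences between urogenital sinus and skin of the 4 receptors. In UGE its lowest, median and highest log2 intensities were 8.56, 9.06 and 9.37. The UGM samples had 9.85, 9.35, 9.91, 9.83 and 9.77. Every UGM sample but replicate 2 lay above every UGE sample, and that replicate fell inside the UGE range.

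In skin, Esr1 measured 5.55, 6.11, 5.95 and 5.86 in epidermis and 7.19, 7.34, 7.39 and 7.19 in dermis. All 4 epidermis samples lay below the array median and under every dermis sample. The order was therefore UGM (9.74 ± 0.22, SD, n = 5), UGE (9.01 ± 0.30, n = 6), dermis (7.28 ± 0.11, n = 4) and epidermis (5.87 ± 0.24, n = 4). Among neighbours in that order, only UGM and UGE had ranges that overlapped.

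Esr1 was 8.84-fold higher in UGE than in epidermis (log2 difference 3.14 ± 0.15, limma adjusted p = 6.01e-12). It was 5.52-fold higher in UGM than in dermis (2.47 ± 0.15, adjusted p = 3.2e-10). Within skin it was 2.66-fold lower in epidermis than in dermis (-1.41 ± 0.13, adjusted p = 3.57e-05), and with an offset of 50 added to the intensities this was -0.92 and no longer past 2-fold. At both sites the epithelium had less Esr1 signal than its mesenchyme, but the difference between UGE and UGM stayed under 2-fold and was not called (-0.73 ± 0.15, adjusted p = 0.00233). UGE replicates 2 and 3, which held the most mesenchymal marker signal of the UGE samples, had Esr1 at 9.16 and 9.37. The other UGE samples ran from 8.56 to 9.21, so replicate 2 fell inside their range. Without replicates 2 and 3 the UGE difference was -0.86 (adjusted p = 0.000774), still not called. The epithelial to mesenchymal difference was not called as differing between urogenital sinus and skin (0.68 ± 0.21, adjusted p = 0.0314).

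The next brightest Esr1 probe set, 1435663_at, gave the same order of group means at a lower signal. Its means were 5.99 ± 0.33 in UGE and 6.94 ± 0.44 in UGM, and 4.30 ± 0.08 in epidermis and 4.93 ± 0.18 in dermis (SD). Epidermis and most dermis values sat near or under the lower quartile of the arrays. It was called higher in UGE than in epidermis (1.69 ± 0.19, adjusted p = 8.06e-07) and in UGM than in dermis (2.01 ± 0.20, adjusted p = 1.56e-07). Its epidermis to dermis difference was under 2-fold (-0.63 ± 0.11, adjusted p = 0.00185). The remaining probe set, 1421244_at, ran from 3.85 to 4.46, under the lower quartile in every sample, and was called in no comparison.

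Pgr, the progesterone receptor and itself a classical target of estrogen receptor alpha, had a different layout. From probe set 1439527_at, UGE had 7.30, 7.82 and 8.22 as its lowest, median and highest log2 intensities, and UGM had 8.06, 7.83, 7.93, 7.83 and 7.56. The UGM range lay wholly inside that of UGE. The difference was -0.07 ± 0.17 (95% interval -0.44 to 0.30, adjusted p = 0.796), so a difference of 2-fold in either direction lay outside the interval.

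Epidermis had Pgr at 8.52, 8.85, 9.23 and 9.0, and dermis at 7.17, 5.09, 6.40 and 6.16. Each epidermis sample exceeded all others in the series, and each dermis sample lay under all others. Pgr was 6.49-fold higher in epidermis than in dermis (2.70 ± 0.37, adjusted p = 0.000331). Dermis was the most variable group (6.20 ± 0.86, SD, n = 4), and its highest and lowest Pgr values fell in the samples with the highest epithelial marker sum (replicate 1, 55495, Pgr 7.17) and the lowest (replicate 2, 28282, Pgr 5.09). Without dermis replicate 1 the difference was 3.02 (adjusted p = 7.55e-05). The part of epithelial cells in the dermis signal was not tested.

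**Figure D2:**
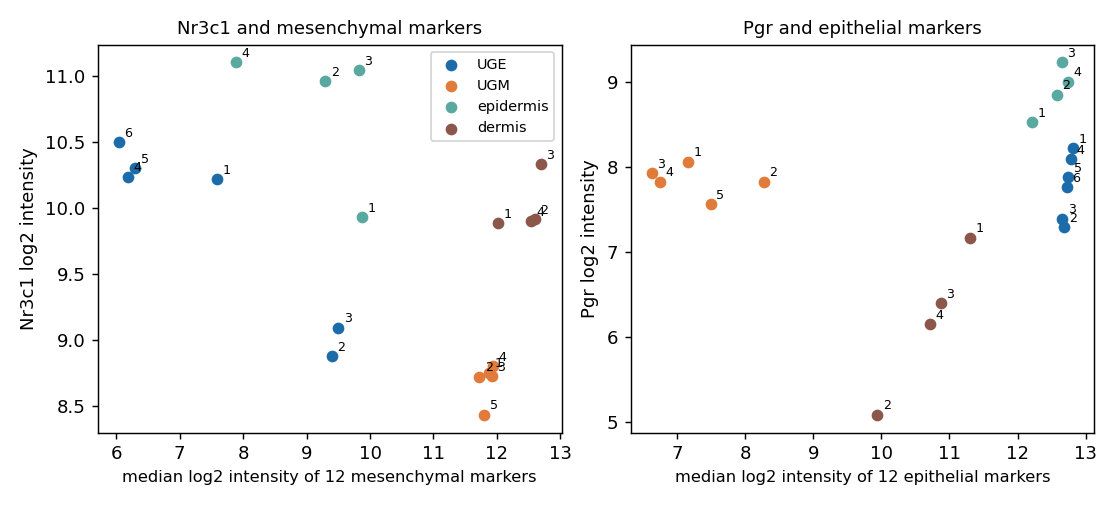
Each point is 1 sample, numbered by replicate. On the left, Nr3c1 log2 intensity stands against the median log2 intensity of 12 mesenchymal markers, and on the right Pgr log2 intensity against that of 12 epithelial markers. UGE replicates 2 and 3 lie to the right of and below the other UGE samples in the Nr3c1 panel, and dermis replicates 1 and 2 are the highest and lowest dermis samples on both axes of the Pgr panel.

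The difference between epithelium and mesenchyme therefore differed between sites for Pgr. The urogenital sinus difference minus the skin difference was -2.77 ± 0.40 (95% interval -3.61 to -1.92, adjusted p = 4.46e-05), and Pgr was the only receptor of the 4 called in this test, where 12.9% of all genes were called. Between sites, Pgr was 2.19-fold lower in UGE than in epidermis (-1.13 ± 0.28, adjusted p = 0.00357) and 3.11-fold higher in UGM than in dermis (1.64 ± 0.29, adjusted p = 0.00019). Epidermis thus had more Pgr signal than UGE, whereas dermis had less than UGM. The call between UGE and epidermis did not hold without UGE replicates 2 and 3 (-0.91, adjusted p = 0.0183), which had Pgr at 7.30 and 7.39, nor without epidermis replicate 3 (-1.02, adjusted p = 0.0168) or replicate 4 (-1.10, adjusted p = 0.0121). With the offset of 50 it was -0.97, under 2-fold.

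A dimmer Pgr probe set, 1455772_at, lay between 4.27 and 5.56 and was called in no comparison. Its mean was highest in UGM (5.31), followed by epidermis (4.83), UGE (4.71) and dermis (4.52). The highest level in epidermis was therefore not repeated in this probe set. Its difference was -0.60 ± 0.15 between UGE and UGM (adjusted p = 0.00837), 0.30 ± 0.11 between epidermis and dermis (adjusted p = 0.067) and 0.79 ± 0.15 between UGM and dermis (adjusted p = 0.00036). Between UGE and epidermis it was -0.12 ± 0.14 (limma adjusted p = 0.557). These sizes were all under 2-fold. The remaining Pgr probe set, 1421444_at, had no value over 20 and was not tested.

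**Figure D3:**
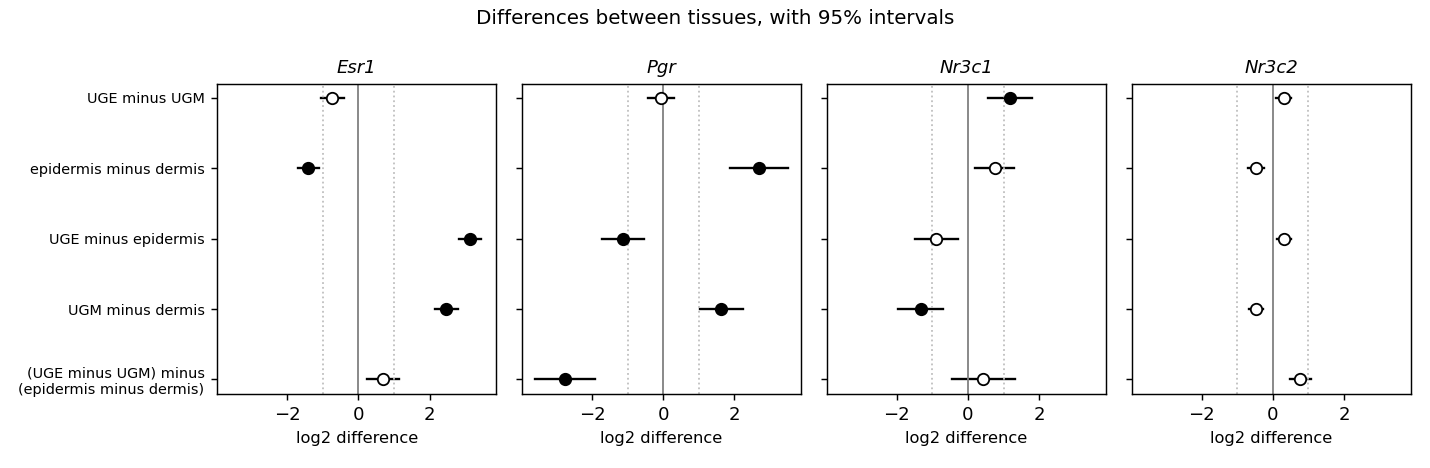
Log2 differences between group means for the brightest probe set of each receptor, with 95% intervals from limma. Filled points were called (adjusted p under 0.01 and over 2-fold) and open points were not, and dotted lines mark 2-fold. Pgr lies near 0 between UGE and UGM and well above 0 between epidermis and dermis, whereas all Nr3c2 differences stay inside the 2-fold lines.

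Nr3c1, the glucocorticoid receptor, was read from probe set 1460303_at. The UGE samples had 8.88, 10.23 and 10.50 as lowest, median and highest log2 intensities, and the UGM samples 8.75, 8.72, 8.73, 8.80 and 8.43. All UGE samples lay above all UGM samples, but replicates 2 and 3, at 8.88 and 9.10, lay just above the UGM range while the other 4 were at 10.22 to 10.50.

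Nr3c1 was called 2.27-fold higher in UGE than in UGM (1.18 ± 0.28, adjusted p = 0.00584). The replicates with low Nr3c1 were those with high mesenchymal and high duct marker signal. The part of mesenchymal or duct cells in their Nr3c1 values was not tested. Without this pair the difference was 1.63 (adjusted p = 2.03e-07). The call lay near its threshold. It ended when any single UGM sample, or any single UGE sample other than replicates 2 and 3, was left out, with the difference between 1.06 and 1.38 and the adjusted p between 0.000551 and 0.0166 over the 11 settings.

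In skin, Nr3c1 had 9.93, 10.96, 11.05 and 11.11 in epidermis and 9.89, 9.92, 10.34 and 9.90 in dermis. Epidermis replicate 1 stood among the dermis samples and the other 3 epidermis samples stood above them all. The difference was not called (0.75 ± 0.25, 95% interval 0.20 to 1.31, adjusted p = 0.0397), but was 1.03 and called without epidermis replicate 1 (adjusted p = 0.000169). That replicate had the lowest epithelial marker sum of its group (74528, against 80993 to 92791 in the others). Its mesenchymal marker sum (40502) was below that of epidermis replicate 3 (42824), which had Nr3c1 at 11.05. The part of other cells in the value of replicate 1 was not tested. The epithelial to mesenchymal difference was not called as differing between sites (0.43 ± 0.42, 95% interval -0.45 to 1.31, adjusted p = 0.579), an interval that includes 0 and a difference of 2-fold.

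Between sites, UGM was 2.50-fold below dermis for Nr3c1 (-1.32 ± 0.30, adjusted p = 0.00191) with no overlap of the samples. UGE was below epidermis by 0.89 on the log2 scale, which was not called (-0.89 ± 0.29, adjusted p = 0.0221). Without epidermis replicate 1 that difference was -1.17 and was called (adjusted p = 0.00361). Without UGE replicates 2 and 3 it was -0.45 (adjusted p = 0.0824). The order of group means was epidermis (10.76 ± 0.56), dermis (10.01 ± 0.22), UGE (9.87 ± 0.70) and UGM (8.69 ± 0.15), and epidermis, dermis and UGE overlapped one another.

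A pair of other bright Nr3c1 probe sets gave the same picture. In 1457635_s_at and 1421867_at, UGE was called higher than UGM (1.41 ± 0.28, adjusted p = 0.00158, and 1.15 ± 0.26, adjusted p = 0.0045). UGM was called lower than dermis in both (-1.66 ± 0.27, adjusted p = 9.3e-05, and -1.52 ± 0.27, adjusted p = 0.00017). They were also called lower in UGE than in epidermis (-1.10 ± 0.26, adjusted p = 0.00282, and -1.21 ± 0.26, adjusted p = 0.000981), where 1460303_at was not. Between epidermis and dermis they gave 0.85 ± 0.19 (limma adjusted p = 0.00535) and 0.84 ± 0.20 (adjusted p = 0.00823). Both passed the limit on adjusted p but stayed under 2-fold and were not called. The remaining 3, 1453860_s_at, 1431378_at and 1421866_at, stayed under the lowest array median in every sample and were called in no comparison. Counted over probe sets, members were called in 3 of 12 for UGE against UGM (13.3% of all probe sets), 2 of 12 for epidermis against dermis (13.7%), 5 of 12 for UGE against epidermis (12%), 6 of 12 for UGM against dermis (12.2%) and 1 of 12 for the difference between sites (9.31%). Probe sets of a gene share its transcripts and are not independent.

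**Figure D4:**
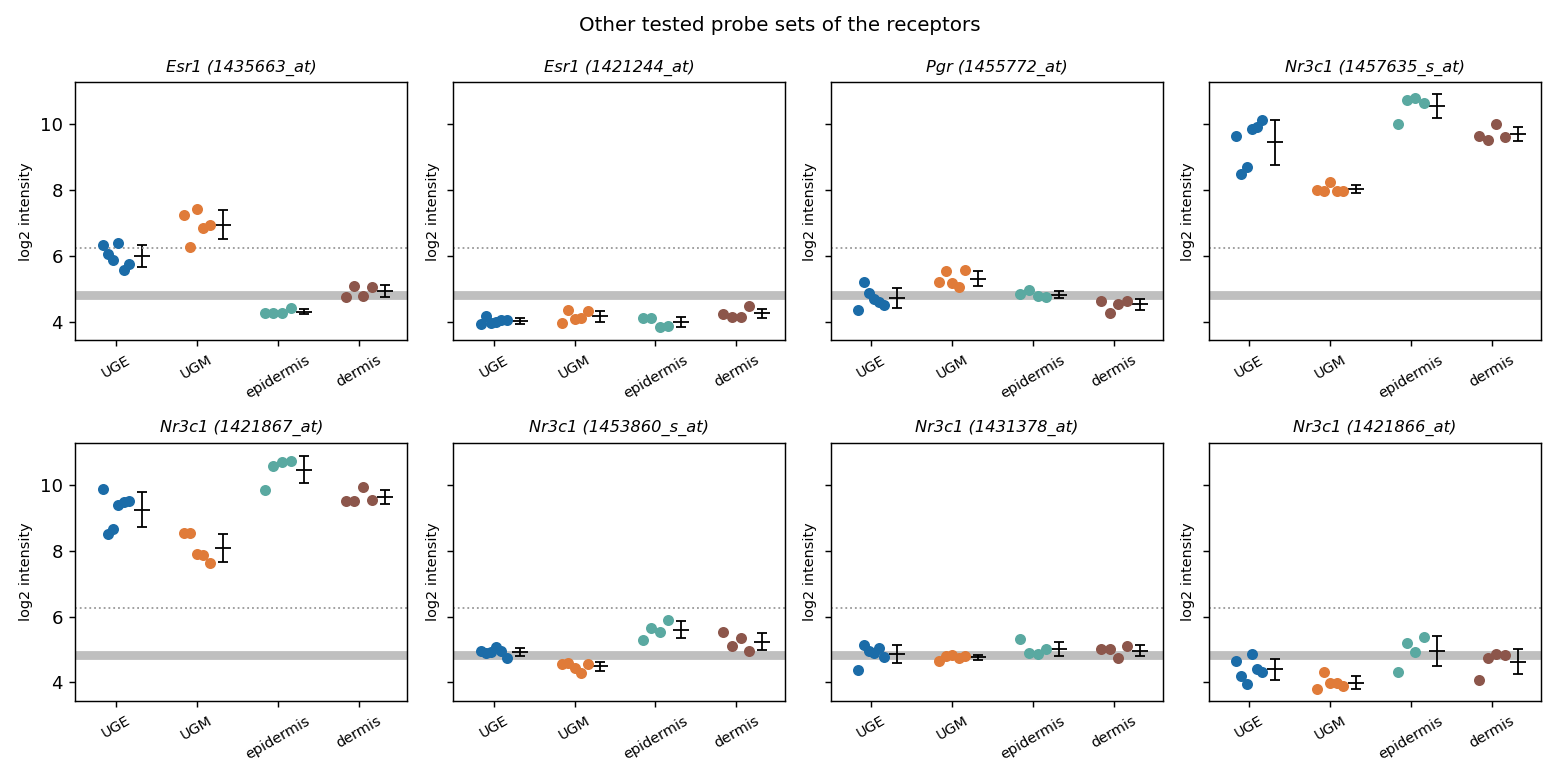
Log2 intensity of the 8 other tested probe sets of Esr1, Pgr and Nr3c1 in every sample, with the group mean and SD (UGE n = 6, UGM n = 5, epidermis n = 4, dermis n = 4), the lower quartiles of the arrays as a grey band and the lowest array median as a dotted line. Nr3c1 1457635_s_at and 1421867_at lie above 7.6 in every sample and repeat the low UGM level, and 5 of the 8, 3 of them of Nr3c1, stay under the dotted line in every sample.

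Nr3c2, the mineralocorticoid receptor, binds aldosterone and, where it is not inactivated, glucocorticoid. Its only probe set, 1435991_at, had 5.74, 6.05 and 6.31 as lowest, median and highest log2 intensities in UGE and 5.71, 5.71, 5.74, 5.69 and 5.73 in UGM. It measured 5.86, 5.61, 5.69 and 5.70 in epidermis and 6.17, 6.32, 6.08 and 6.16 in dermis. All values lay above the lower quartile and under or close to the median of the arrays. UGE and dermis overlapped at the upper end, and UGM lay inside the epidermis range.

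No Nr3c2 difference reached 2-fold and none was called. The differences were 0.31 ± 0.10 between UGE and UGM (adjusted p = 0.024), -0.47 ± 0.10 between epidermis and dermis (adjusted p = 0.00482), 0.31 ± 0.09 between UGE and epidermis (adjusted p = 0.0128) and -0.47 ± 0.10 between UGM and dermis (adjusted p = 0.000846). The epithelial to mesenchymal difference pointed upward in urogenital sinus and downward in skin, and its difference between sites was 0.78 ± 0.13 (95% interval 0.50 to 1.06, adjusted p = 0.000262), under the 2-fold limit. UGE replicates 2 and 3 had 6.31 and 6.08, and the other UGE samples 5.74 to 6.12.

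For each receptor, the 3 genes with the most similar profile were taken from the genes called in at least 1 comparison (5409 for Esr1, Pgr and Nr3c1 and 5410 for Nr3c2), by Pearson r over the 19 samples. The samples fall into 4 tissues, so r describes mainly the group levels. Closest to Esr1 were Faxc (r = 0.987), Nol4l (0.984) and Cpe (0.984), a carboxypeptidase that trims peptide hormones. Cpe averaged 11.73 in UGE and 12.48 in UGM, against 8.64 in epidermis and 9.92 in dermis.

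Pgr ran closest to the kinase gene Hipk2 (0.926), to Cdkl2 (0.921) and to Shtn1 (0.917). The genes nearest to Nr3c1 were Il13ra1, a subunit of the interleukin receptor (0.977), Tmem123 (0.970) and Galnt7, which acts in O-linked glycosylation (0.952). Il13ra1 shared with Nr3c1 the wide spread among UGE samples, at 8.08 ± 0.64 in UGE and 6.61 ± 0.06 in UGM. For Nr3c2 these were Pgap4 (0.899), H6pd (0.894) and Mthfd1l (0.875). H6pd supplies the reduced cofactor that lets Hsd11b1 regenerate active glucocorticoid. H6pd averaged 9.63 in UGE and 9.02 in UGM, against 8.81 in epidermis and 9.94 in dermis. Its order in skin was the reverse of that of Hsd11b1, given below.

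The pathway around the receptors was read from 8 lists of genes. Over all genes tested, the median log2 difference was 0.02 between UGE and UGM, 0.01 between epidermis and dermis, -0.04 between UGE and epidermis and -0.07 between UGM and dermis. Many pathway calls rested on 1 probe set or lay close to 2-fold. Over these 4 comparisons, 43 of 69 calls of single genes had a next brightest probe set, and 19 of the 43 were called in it in the same direction. The share of all genes called by a next brightest probe set was not computed. Counts by that probe set, here and below, therefore have no background to be set against. A test against 2-fold itself kept 34 of the 69.

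Of 6 family relatives, none was called between UGE and UGM or between epidermis and dermis by limma or the methods' t-test. Limma called 16.8% and 16.9% of all genes in these comparisons. The medians were 0.13 and -0.04, and 1 and 2 of the 6 had an unadjusted p under 0.05 in limma. By the next brightest probe set, 2 of 5 and 1 of 5 were called. Between UGE and epidermis 1 of 6 was called (14.4% of all genes), Esrrg, an estrogen-related orphan receptor (1.92 ± 0.38, adjusted p = 0.000464). That call ended with the offset of 50 (0.95), with the next brightest probe set (0.67) and with the test against 2-fold (adjusted p = 0.198). Esr2, the second estrogen receptor, and Srd5a3, a reductase of the 5-alpha-reductase family, were picked for their kinship. Esr2 stayed between 5.07 and 5.61 in all samples, with group means of 5.32 in UGE and 5.14 in UGM, and 5.40 in epidermis and 5.43 in dermis. Srd5a3 averaged 8.49 ± 0.51 in UGE and 8.49 ± 0.23 in UGM, and 8.66 ± 0.30 in epidermis and 8.98 ± 0.23 in dermis. Neither was called in any comparison.

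Enzymes that activate or inactivate glucocorticoids differed by tissue. Hsd11b1, which regenerates active glucocorticoid, had 9.60, 10.22, 10.32 and 11.11 in epidermis and 8.72, 7.29, 7.20 and 8.03 in dermis. It stayed between 6.09 and 6.72 in UGE and between 6.36 and 6.80 in UGM. Skin samples were all above urogenital sinus samples, and epidermis stood above dermis. Summed over 7 suprabasal epidermal markers, dermis replicates 1 to 4 had 69859, 23608, 37845 and 56882. Epidermis had 81249 to 107804 on these markers and UGM 1096 to 1536. Dermis replicates 1 and 4 were the highest of their group for these markers and for Hsd11b1. The part of epidermal cells in the dermis Hsd11b1 signal was not tested. Hsd11b1 was called higher in epidermis than in dermis (2.50 ± 0.38, adjusted p = 0.000645), lower in UGE than in epidermis (-3.85 ± 0.27, adjusted p = 1.72e-09) and lower in UGM than in dermis (-1.18 ± 0.29, adjusted p = 0.00292). The last of these was no longer called without UGM replicate 2 and dermis replicate 1 (-0.92, adjusted p = 0.0177), without dermis replicate 1 (-0.88) or 4 (-1.11, adjusted p = 0.0117), or with the offset of 50 (-0.90), and the first was not called by the methods' t-test (adjusted p = 0.0119).

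Hsd11b2 inactivates glucocorticoid and so keeps it from the mineralocorticoid receptor. UGM had it at 10.73, 10.61, 9.43, 9.64 and 10.33, whereas UGE replicates 2 and 3 had 8.68 each and the other UGE samples 6.41 to 7.01. In skin it ran from 6.44 to 7.28 in epidermis and from 6.96 to 7.39 in dermis. UGM lay above all other samples. Hsd11b2 was called lower in UGE than in UGM (-2.77 ± 0.46, adjusted p = 0.000413) and higher in UGM than in dermis (2.98 ± 0.42, adjusted p = 1.77e-05).

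The steroid interconversion list, to which both enzymes belong, had 20 of 23 genes tested. Between UGE and UGM, 2 were called higher and 2 lower (median 0.05), where 16.8% of all genes were called, and between epidermis and dermis 3 were called higher and 3 lower (median -0.01), against 16.9% of all genes. The 6 called in skin became 3 with the methods' t-test and 2 with the test against 2-fold, and by the next brightest probe set 0 of 6 genes were called between UGE and UGM and 1 of 6 between epidermis and dermis. Hsd17b2, which oxidises estradiol and testosterone to weaker forms, was higher in UGE than in UGM (1.64 ± 0.17, adjusted p = 1.07e-05), though only 0.83 with the offset of 50. Sult2b1, which sulfates cholesterol and related steroids, was higher in UGE than in UGM (1.90 ± 0.17, adjusted p = 2.38e-06) and in epidermis than in dermis (2.66 ± 0.55, adjusted p = 0.00403). The call in skin ended without epidermis replicate 2, 3 or 4 or dermis replicate 3 or 4 (2.14 to 3.23 over 8 settings, adjusted p up to 0.0149), and with the methods' t-test (adjusted p = 0.0345). Sult2b1 was lower in UGE than in epidermis (-3.84 ± 0.39, adjusted p = 2.61e-07). Hsd17b11 was lower in UGE than in UGM (-1.17 ± 0.10, adjusted p = 1.61e-06) and in epidermis than in dermis (-2.74 ± 0.24, adjusted p = 2.44e-05), but its next brightest probe set was called in neither, at 0.11 between UGE and UGM (adjusted p = 0.564) and -0.26 between epidermis and dermis (adjusted p = 0.267). Hsd17b7, which also acts in cholesterol synthesis, was higher in epidermis than in dermis (1.69 ± 0.23, adjusted p = 0.000351).

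Of the genes that make steroids from cholesterol, 9 of 13 were tested, with 1 called between UGE and UGM (median 0.16, against 16.8% of all genes) and 2 between epidermis and dermis (median 0.12, against 16.9%). By the next brightest probe set, 0 of 3 genes were called in either. Cyp11a1, the first enzyme of the pathway, was at 9.10, 8.94, 8.46 and 9.11 in dermis and did not exceed 6.24 in any other sample. It was lower in epidermis than in dermis (-3.27 ± 0.22, adjusted p = 7.01e-06) and in UGM than in dermis (-3.96 ± 0.21, adjusted p = 2.71e-11). Its next brightest probe set was called in neither, at -0.12 (adjusted p = 0.464) and -0.05 (adjusted p = 0.766). Cyp17a1, needed for androgens, had its highest values in epidermis (7.82 to 8.75), against 5.43 to 6.57 in dermis. It was called higher in epidermis than in dermis (2.31 ± 0.29, adjusted p = 2e-04) and lower in UGE than in epidermis (-2.84 ± 0.21, adjusted p = 3.46e-09). UGE and UGM stayed at 5.22 to 5.81 and 5.34 to 5.48 for Cyp17a1, under the array median. Fdx1, which passes electrons to Cyp11a1, was higher in UGE than in UGM (1.07 ± 0.12, adjusted p = 2.14e-05).

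**Figure D5:**
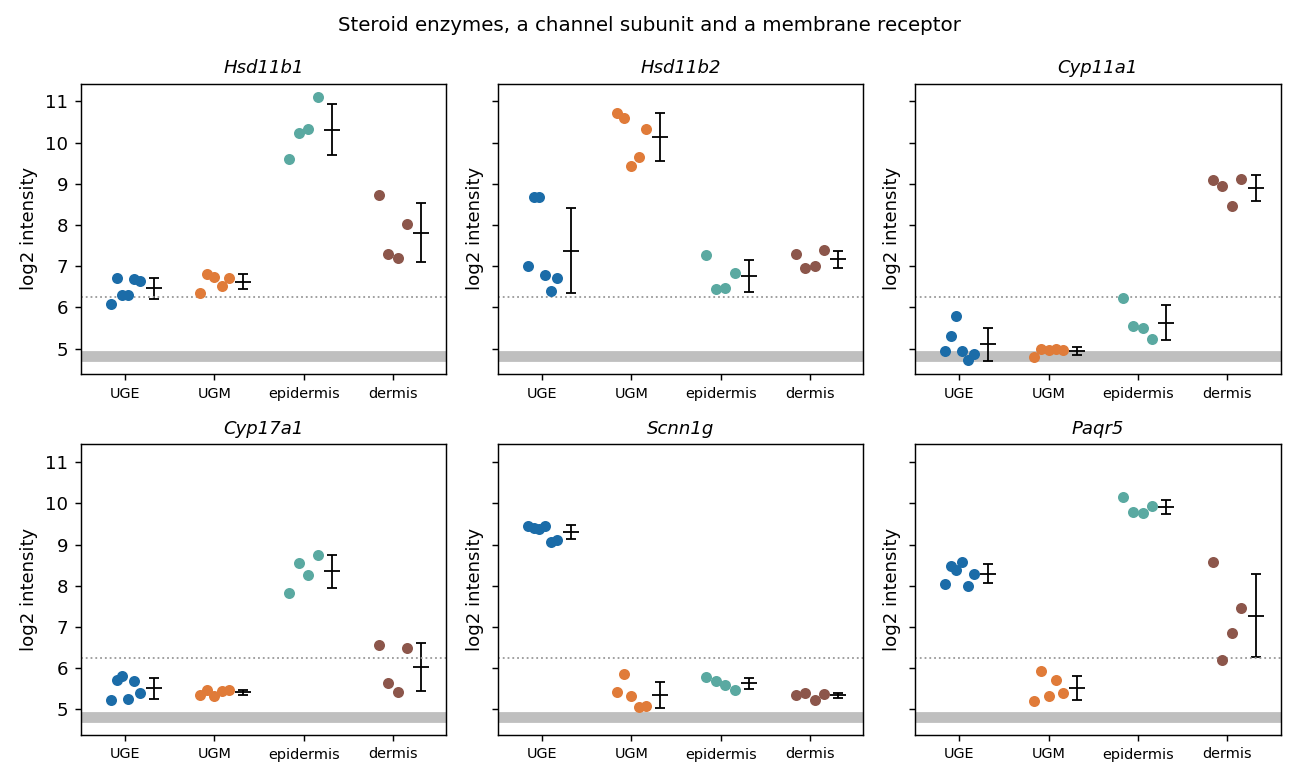
Log2 intensity of 6 pathway genes in every sample, with the group mean and SD (UGE n = 6, UGM n = 5, epidermis n = 4, dermis n = 4), the lower quartiles of the arrays as a grey band and the lowest array median as a dotted line. Hsd11b1 and Cyp17a1 are highest in epidermis, Hsd11b2 in UGM, Cyp11a1 in dermis, Scnn1g in UGE, and Paqr5 is higher in each epithelium than in its mesenchyme.

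Known targets of the glucocorticoid and mineralocorticoid receptors were all tested (16 of 16). They include Hsd11b1 and Fkbp5, which are also counted in other lists here. Between UGE and UGM 4 were called higher and 2 lower (median 0.36), where 16.8% of all genes were called, and between epidermis and dermis 4 higher and 1 lower (median 0.36, against 16.9% of all genes). Against epidermis, UGE had 3 higher and 7 lower (median -0.80, against 14.4% of all genes), and against dermis UGM had 0 higher (1 at an unadjusted p under 0.05 in limma) and 4 lower (median -0.36, against 13.8%). With the test against 2-fold the 10 called between UGE and epidermis became 5, the 5 between epidermis and dermis became 1, and the 4 between UGM and dermis became 2. The 2 called lower in UGE than in UGM, Tsc22d3 and Dusp1, also lost their calls in that test. By the next brightest probe set, 1 of 7 genes was called between UGE and UGM, 2 of 7 between epidermis and dermis, 2 of 7 between UGE and epidermis and 1 of 7 between UGM and dermis. Scnn1g and Scnn1b, subunits of the epithelial sodium channel, led the UGE side. Scnn1g had 9.08 to 9.46 in UGE and 5.07 to 5.86 in UGM, against 5.47 to 5.78 in epidermis and 5.24 to 5.39 in dermis (UGE minus UGM 3.96 ± 0.14, adjusted p = 1.01e-09). Scnn1b followed it (2.79 ± 0.14, adjusted p = 1.4e-08), whereas Scnn1a was called between epidermis and dermis (1.79 ± 0.28, adjusted p = 0.000768, but 0.0123 by the methods' t-test) and was lower in UGE than in epidermis (-1.84 ± 0.21, adjusted p = 1.4e-06).

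Other targets moved in other directions. Tsc22d3, a glucocorticoid-induced leucine zipper protein, was lower in UGE than in UGM (-1.27 ± 0.21, adjusted p = 0.000401) and than in epidermis (-1.32 ± 0.25, adjusted p = 0.000358). Its next brightest probe set was called in neither, at -0.17 (adjusted p = 0.399) and -0.47 (adjusted p = 0.0109). Cdkn1a, a cell cycle inhibitor, was higher in UGE than in UGM (2.38 ± 0.22, adjusted p = 3.09e-06) and in epidermis than in dermis (1.35 ± 0.21, adjusted p = 0.000844, but 0.0115 by the methods' t-test). Klf9 was lower in epidermis than in dermis (-1.58 ± 0.21, adjusted p = 0.000257) and higher in UGE than in epidermis (2.29 ± 0.19, adjusted p = 1.6e-08). Errfi1, a brake on the epidermal growth factor receptor, was called higher in both epithelia (1.92 ± 0.11 between UGE and UGM, adjusted p = 3.32e-08, and 1.64 ± 0.20 between epidermis and dermis, adjusted p = 0.000179). Its next brightest probe set was under 2-fold in both, at 0.49 (adjusted p = 0.00294) and 0.83 (adjusted p = 0.000841). Many of these genes answer to other signals as well, so the list is no measure of receptor activity.

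Among genes known to answer estrogen or progesterone, 11 of 13 were tested, Pgr included. Between UGE and UGM 1 was called higher and 2 lower (median -0.07, against 16.8% of all genes called), and between epidermis and dermis 2 were called higher and 3 lower (median 0.11, against 16.9%), which the test against 2-fold reduced to 3 in all. Hand2, a progesterone target of the uterine stroma in mice, was at 11.35 to 11.93 in UGM and at 8.59 and 8.55 in UGE replicates 2 and 3, against 4.43 to 6.17 in the other UGE samples. It was lower in UGE than in UGM (-5.40 ± 0.74, adjusted p = 9.53e-05) and higher in UGM than in dermis (5.01 ± 0.69, adjusted p = 1.2e-05). Its next brightest probe set was called in neither, at -0.56 (adjusted p = 0.0176) and 0.43 (adjusted p = 0.0599). Hand2 was also called lower in epidermis than in dermis (-1.42 ± 0.29, limma adjusted p = 0.00349). That call did not hold with the replicate number as a block (adjusted p = 0.0107), nor in its next brightest probe set (0.04, adjusted p = 0.888).

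Wnt4, a secreted ligand that progesterone induces in mammary epithelium, was highest in UGE (12.92 to 13.22), against 8.27 to 9.08 in UGM (4.50 ± 0.13, adjusted p = 2.3e-10). It was also higher in epidermis than in dermis (1.20 ± 0.19, adjusted p = 0.000757). Greb1, an estrogen receptor cofactor and target, was higher in UGM than in dermis (2.16 ± 0.51, adjusted p = 0.00252), but not called without UGM replicate 2 and dermis replicate 1 (adjusted p = 0.0131). UGE replicates 2 and 3 had Greb1 at 8.30 and 8.44, inside or next to the UGM range of 8.11 to 8.43, and the other UGE samples had 5.32 to 6.39. Without these 2 replicates, 5 genes of this list were called between UGE and UGM in place of 3. Igfbp4, which binds insulin-like growth factors, was lower in epidermis than in dermis (-2.05 ± 0.20, adjusted p = 4.22e-05). Its difference between UGE and UGM lay at the 2-fold limit (-1.0 ± 0.16, adjusted p = 0.000405), and that call ended without UGE replicate 1, 4 or 6 or UGM replicate 1 or 2 (-1.09 to -0.88 over 11 settings).

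Of 8 tested chaperones and immunophilins, none was called between UGE and UGM or between epidermis and dermis by limma or the methods' t-test. Limma called 16.8% and 16.9% of all genes in these comparisons. The medians were 0.01 and -0.18, and 4 and 3 of the 8 had an unadjusted p under 0.05 in limma. Fkbp5, an immunophilin that lowers hormone binding by the glucocorticoid receptor and is itself one of its targets, was the 1 of 8 called between UGE and epidermis, where 14.4% of all genes were called. It was lower in UGE (-1.41 ± 0.16, adjusted p = 9.8e-07), and its next brightest probe set gave -0.66 (adjusted p = 0.000648), under 2-fold. Of 13 coactivators and corepressors, 1 was called between UGE and UGM (median 0.05, against 16.8% of all genes). None was called between epidermis and dermis by limma or the methods' t-test (median 0.08, against 16.9% of all genes in limma). In that comparison 4 had an unadjusted p under 0.05 in limma. The called gene was Nrip1, a corepressor that binds estrogen receptor alpha, which was higher in UGE than in UGM (1.41 ± 0.16, adjusted p = 1.5e-05) and in UGE than in epidermis (1.33 ± 0.17, adjusted p = 5.68e-06). Its next brightest probe set was called in neither, at 0.87 (adjusted p = 0.0346) and 0.33 (adjusted p = 0.4). Between UGE and epidermis 2 of 13 were called (14.4% of all genes), and none of 10 by the next brightest probe set. Beside Nrip1, Ncoa4 was lower in UGE than in epidermis (-1.04 ± 0.16, adjusted p = 4.87e-05), and under 2-fold without UGE replicates 2 and 3 (-0.81, adjusted p = 3.35e-05).

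Of 7 membrane receptors for steroids, 1 was called between UGE and UGM (median 0.10, against 16.8% of all genes) and 2 between epidermis and dermis (median 0.02, against 16.9%). By the next brightest probe set these were 2 of 6 and 1 of 6, and with the methods' t-test none was called in skin (adjusted p = 0.0133 for Paqr5 and 0.0143 for Paqr8). Paqr5, a membrane progestin receptor, was higher in UGE than in UGM (2.78 ± 0.15, adjusted p = 2.37e-08) and in epidermis than in dermis (2.64 ± 0.41, adjusted p = 0.000764). In dermis its value was 8.58 in replicate 1 and 6.20 in replicate 2, the samples that were also highest and lowest for Pgr. Paqr8, a relative of Paqr5, was lower in epidermis than in dermis (-1.22 ± 0.21, adjusted p = 0.0013) and higher in UGE than in epidermis (1.85 ± 0.15, adjusted p = 6.81e-09). Its next brightest probe set stayed under 2-fold in both, at -0.50 (adjusted p = 0.0358) and 0.97 (adjusted p = 1.21e-05), and with the offset of 50 the skin difference was -0.87. Its difference between sites was called as well (2.18 ± 0.21, adjusted p = 2.71e-07).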

How the data were processed

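RNA of each pool was amplified in 2 cycles and hybridized to Affymetrix mouse arrays by the authors. The values used were the linear intensity per probe set that the authors deposited after normalizing between arrays. GCOS 1.4 scaling, MAS5 and PLIER are named in the methods, without saying which of them produced these numbers. Values were put on the log2 scale as they stood. The 64 control probe sets among 45101 were dropped, and of the remainder 34945 carried 1 gene symbol, 932 several and 9160 none here. A probe set entered the test if any sample exceeded an intensity of 20, and was fitted in limma 3.58.1 (lmFit and eBayes, R 4.3.3). The fits were checked on simulated data. UGE with UGM and epidermis with dermis were compared in fits of their own samples, and the other comparisons in 1 fit of all 19 samples. Precision rests on the number of arrays, and p-values measure the spread between pools. Named pathway genes were up to 4 called genes of largest change per list and comparison, a few more being named where stated or where their values bear on a receptor. Members and lists were chosen with earlier results of these data known.

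Samples that share a number were checked for pairing by correlating their deviations from group means. All 4 epidermis and dermis pairs correlated positively (0.34, 0.11, 0.26 and 0.17). Samples of unlike number were not correlated for comparison, so these values cannot show that the numbers pair samples. An alternative fit with the number as a block changed no receptor call in skin, whereas Hand2 lost its call there. For UGE and UGM the values ran from -0.41 to 0.65, and these numbers were not taken as pairing. Within groups, replicates correlated at 0.954 to 0.997 and no 2 samples were identical. Alternatives covered the filter, offset, normalization, probe set, test, thresholds and samples left out.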

Additional observations from a re-analysis of the deposited data

Results flagged for a closer look

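Over the tested probe sets of the 4 receptors, 8 of 48 groups of samples held a value far from the others of its group, where chance gives about 1 in 20. Epidermis replicate 1 was low for Nr3c1 in 1460303_at (9.93, nearest other 10.96) and in 1421867_at (9.86, nearest 10.58). Dermis replicate 3 was high for the same probe sets (10.34, nearest 9.92, and 9.94, nearest 9.54). These probe sets read the same transcripts, so these values are not independent. UGM held a low Nr3c1 value in replicate 5 (1460303_at, 8.43, nearest 8.72), a high one in replicate 3 (1457635_s_at, 8.24, nearest 7.99) and a low Esr1 value in replicate 2 (1460591_at, 9.35, nearest 9.77). Epidermis replicate 4 was high for the dim Esr1 probe set 1435663_at (4.42, nearest 4.27). Pgr (1439527_at) differed between urogenital sinus and skin in its epithelial to mesenchymal difference, by -2.77 on the log2 scale in limma's test of that difference (adjusted p = 4.46e-05). UGE replicates 2 and 3 passed no such limit, since they lie apart together.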

How the results depend on the processing

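Over 450 receptor values under alternatives, 416 kept direction and side of the threshold, 27 lost a call, 3 gained one and 4 changed sign. No call changed with quantile normalization, no filter or a stricter one, an adjusted p limit of 0.05, a trended robust fit or other samples in the fit. Between UGE and UGM the 1 call (Nr3c1) became 0 with the methods' t-test, with a test against 2-fold, and without UGM replicate 2 and dermis replicate 1 together. With the replicate block it also became 0 (Nr3c1 1.06, limma adjusted p = 0.0223), though those numbers were not taken as pairing. Leaving out single samples gave 0 to 1. Between epidermis and dermis the 2 calls became 1 with the test against 2-fold, 1 with log2(intensity + 50) and 0 with the next brightest probe set, and 2 to 3 with single samples left out. Between UGE and epidermis the 2 calls became 1 with the test against 2-fold, 1 with the offset of 50 and 1 without UGE replicates 2 and 3 together, and 1 to 3 with single samples left out. Between UGM and dermis the 3 calls became 1 with the test against 2-fold and stayed 3 with single samples left out. The call on the difference between sites stayed 1 with single samples left out and became 0 with the next brightest probe set, where Esr1 changed sign (-0.32). Pgr between UGE and UGM, within its spread of 0, ran from -0.16 to 0.027 with single samples left out and was 0.15 without UGE replicates 2 and 3. Of 1959 values of called pathway genes, 1768 kept direction and call, 189 lost the call and 2 changed sign (Hsd17b11 between UGE and UGM, 0.11, and Hand2 between epidermis and dermis, 0.038, with the next brightest probe set). The causes were not tested. Dim probe sets give differences that background can shrink, 4 to 6 pools per group limit precision, and site cannot be told apart from separation method.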
